A study of Homo sapiens with 9 samples.

Results

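The transcripts described here come from 10 genes of macroautophagy, taken by gene name out of the 27615 genes in the longest of the deposited lists: the cargo receptors SQSTM1, OPTN, NBR1 and TAX1BP1, the ATG8 family genes MAP1LC3B, GABARAPL1 and GABARAPL2, and the initiation and nucleation genes ULK1, WIPI1 and BECN1. They were measured by RNA-seq in MDA-MB-231, an established human triple-negative breast cancer cell line, with 3 libraries from cells given the vehicle DMSO, 3 from cells given rimonabant and 3 from cells given TXX-1-10. Rimonabant blocks CB1, a cannabinoid receptor, TXX-1-10 was derived from it, and the question of the sequencing was how TXX-1-10 alters gene expression beside its parent compound. Neither dose nor time is given for the sequenced cells in the sources used here, and both compounds were compared with the same 3 vehicle libraries.

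Macroautophagy encloses cytoplasm in a double membrane, the autophagosome, which then fuses with the lysosome. The ULK1 kinase complex starts the process, the lipid kinase complex built around Beclin 1 marks the membrane with phosphatidylinositol 3-phosphate, and proteins of the ATG8 family (LC3 and GABARAP) are coupled to the growing membrane. Cargo receptors such as p62, the product of SQSTM1, bind both ubiquitinated cargo and ATG8 proteins and are degraded with the cargo, so that the level of their mRNA and the level of their protein can part ways. Only mRNA was measured here.

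Promoter sequence is shown for 4 genes whose mRNA was higher with TXX-1-10, from the receptor, ATG8 and nucleation classes, and for BECN1, whose mRNA differed little. Each run is the 250 bases before a start in RefSeq (GRCh38.p14), printed 5′ to 3′ on the strand of the gene. The windows are chr5:179820655-179820904 (plus strand, the most downstream of 3 SQSTM1 starts), chr16:87392086-87392335 (plus strand, MAP1LC3B), chr12:10212627-10212876 (plus strand, GABARAPL1), chr17:68457497-68457746 (minus strand, WIPI1) and chr17:42823880-42824129 (minus strand, BECN1). Capitals mark the match to a motif searched for on both strands.
SQSTM1: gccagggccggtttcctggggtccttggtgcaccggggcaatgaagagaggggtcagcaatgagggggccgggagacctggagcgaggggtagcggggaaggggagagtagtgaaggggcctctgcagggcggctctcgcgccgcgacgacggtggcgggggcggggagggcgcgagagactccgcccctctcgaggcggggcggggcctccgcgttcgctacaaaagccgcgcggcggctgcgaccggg
MAP1LC3B: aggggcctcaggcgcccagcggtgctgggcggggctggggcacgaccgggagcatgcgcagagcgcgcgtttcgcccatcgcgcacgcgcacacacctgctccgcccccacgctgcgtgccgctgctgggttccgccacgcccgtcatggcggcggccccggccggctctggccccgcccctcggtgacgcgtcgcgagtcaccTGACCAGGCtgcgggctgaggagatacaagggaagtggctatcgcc
GABARAPL1: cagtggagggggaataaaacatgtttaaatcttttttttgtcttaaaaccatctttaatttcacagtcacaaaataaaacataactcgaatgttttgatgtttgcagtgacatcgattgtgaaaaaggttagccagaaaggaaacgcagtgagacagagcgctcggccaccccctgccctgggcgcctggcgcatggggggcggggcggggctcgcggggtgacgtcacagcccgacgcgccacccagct
WIPI1: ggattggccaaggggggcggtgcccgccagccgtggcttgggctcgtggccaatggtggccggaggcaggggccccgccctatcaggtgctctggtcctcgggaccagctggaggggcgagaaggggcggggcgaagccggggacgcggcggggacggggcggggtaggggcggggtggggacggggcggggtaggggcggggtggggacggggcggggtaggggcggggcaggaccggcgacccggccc
BECN1: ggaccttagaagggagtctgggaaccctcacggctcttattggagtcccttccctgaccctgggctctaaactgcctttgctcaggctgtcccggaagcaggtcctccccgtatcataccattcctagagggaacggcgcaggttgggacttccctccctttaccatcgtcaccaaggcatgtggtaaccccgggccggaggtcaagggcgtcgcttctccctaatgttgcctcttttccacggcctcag
All 10 genes had an entry, with 15 windows between them, and 4 motifs were searched for. These were the palindromic E-box bound by TFEB and TFE3, CACGTG, present in 6.34% of the 35116 windows of this length in the table, the core of the antioxidant response element bound by NRF2, TGACNNNGC (10.9% of windows), the element bound by ATF4 with C/EBP partners, TGATGNAA (3.14%), and the forkhead motif TGTTTAC (2.98%). The search gave 1 match, TGACCAGGC in the MAP1LC3B window, 46 to 38 bases before the start, and the other 14 windows held none of the 4. Sequence outside the 15 windows was not searched. The windows shown were rich in CpG, with 29 CpG in SQSTM1, 33 in MAP1LC3B and 26 in WIPI1, and fewer in GABARAPL1 (15) and BECN1 (11).

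The libraries were of similar depth. The read total behind the FPKM values ran from 17078370 to 19277808, and FPKM is the count scaled to this total and to the length of the gene. All 9 lists end partway, at different points of a shared order that runs broadly from high to low counts. A gene missing from a list is therefore not a gene at 0. The order did not follow the counts of each library. GABARAPL1, with 445 to 482 reads with vehicle and 2787 to 2975 with TXX-1-10, is in all 9 lists. GABARAPL2, with 579 to 614 reads with vehicle and 725 to 900 with TXX-1-10, is not. What set the order was not tested. Of the 10 genes, 8 were listed for all 9 libraries, and GABARAPL2 and WIPI1 for 8, without rimonabant replicate 1. The line's markers VIM (224 to 329 FPKM), CD44, AXL and CAV1 were listed in every library, ESR1 and PGR lay under 0.05 FPKM in the 4 lists that reach them, and the leukocyte, endothelial and fibroblast markers PTPRC, PECAM1, COL1A1 and PDGFRB reached at most 0.798 FPKM. Of the other epithelial markers, CDH1 was at 0 in 4 lists, GATA3 and FOXA1 reached at most 1.45 and 0.86 FPKM in 6, and EPCAM was listed at 4.47 to 5.37 FPKM in 7. Rimonabant replicate 1 and TXX-1-10 replicate 3 stood apart from their group, with a log ratio to the other replicates that fell with gene length (Spearman rho -0.693 and -0.692 across 4237 genes), and results are given without them where that changed a call of a gene named below.

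With TXX-1-10, transcripts of all 3 classes were higher than with vehicle. The 6 genes SQSTM1, OPTN, MAP1LC3B, GABARAPL1, ULK1 and WIPI1 had a log2 fold change of at least 1 with an adjusted p under 0.05 (edgeR quasi-likelihood test, Benjamini-Hochberg adjustment), here termed called. Among all 11203 genes tested 6.34% were called higher, and among the 4236 genes listed for all 9 libraries 4.2% were. NBR1, TAX1BP1 and GABARAPL2 were higher below that fold, which made 9 of 10 genes higher at an adjusted p under 0.05 against 34.1% of all genes. None of the 10 was lower, where 7.68% of all genes were called lower and 37.6% were lower at any fold. The median log2 fold change of the 10 was 1.49, and that of all tested genes -0.0228. The 10 were chosen with earlier results of these data known, so the shares of all genes are set beside them as a description.

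With rimonabant the same 9 genes were higher than with vehicle at an adjusted p under 0.05, against 22.7% of all genes, but only GABARAPL1 was called, where 1.07% of all genes were called higher. None was lower, against 1.03% of all genes called lower and 20.4% lower at any fold. The median log2 fold change of the 10 was 0.523, and that of all tested genes 0.00831. Nothing in the labels says that the 3 libraries of a treatment came from separate cultures, so the p-values measure the spread between these libraries, which may be technical. In bulk RNA, more RNA per cell and more cells that carry it cannot be told apart.

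SQSTM1 (ENSG00000161011, chr5:179806398-179838078, plus strand, GRCh38) encodes p62, the receptor that also binds KEAP1, the inhibitor of NRF2. Its level was 47.0, 48.0 and 48.6 FPKM in vehicle replicates 1 to 3, 85.8, 80.7 and 82.5 FPKM with rimonabant and 216, 212 and 224 FPKM with TXX-1-10. The 3 groups were far apart, with every TXX-1-10 library above every rimonabant library and every rimonabant library above every vehicle library. How often groups are separate among all genes was not counted. Between TXX-1-10 and vehicle, 34.1% of all genes were higher and 37.6% lower at an adjusted p under 0.05. Separation of the groups, here and for the genes below, is therefore only a description. The group means were 47.9 ± 0.799, 83.0 ± 2.6 and 218 ± 6.08 FPKM (SD, n = 3 each). Against vehicle, TXX-1-10 raised SQSTM1 4.54-fold, a log2 fold change of 2.18 (SE 0.0509, adjusted p = 3.87e-10), and rimonabant 1.73-fold, a log2 fold change of 0.79 (SE 0.0492, adjusted p = 2.55e-06). SQSTM1 took rank 74 of 11203 genes by log2 fold change with TXX-1-10 and rank 234 with rimonabant. Exons of MRNIP on the opposite strand cover 20.7% of the exonic bases of SQSTM1, and the strand setting of the counting is not given in the sources used here. MRNIP held 489 to 2139 reads in the 8 lists that reach it. SQSTM1 held 6150 to 6411 reads in the vehicle libraries and 29910 to 31899 reads in the TXX-1-10 libraries.

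OPTN (ENSG00000123240, chr10:13099449-13138308, plus strand) encodes optineurin, a receptor for ubiquitinated mitochondria and bacteria. It stood at 31.7, 30.4 and 29.2 FPKM with vehicle, 40.5, 37.5 and 38.7 FPKM with rimonabant and 68.8, 67.2 and 74.0 FPKM with TXX-1-10. The groups did not overlap, and the step from rimonabant to TXX-1-10 was the larger. Against vehicle, the log2 fold change was 1.20 with TXX-1-10 (SE 0.0554, adjusted p = 2.31e-08) and 0.35 with rimonabant (SE 0.0551, adjusted p = 0.000571).

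NBR1 (ENSG00000188554, chr17:43170481-43211689, plus strand), whose product shares the ubiquitin-binding and LC3-binding layout of p62, moved less. Its libraries read 24.3, 24.1 and 24.1 FPKM with vehicle, 28.7, 29.4 and 28.95 FPKM with rimonabant and 38.7, 38.3 and 37.4 FPKM with TXX-1-10. Replicates lay within 1 or 2 FPKM of each other, so that a small difference stood clear of the spread. TXX-1-10 gave a log2 fold change of 0.66 (SE 0.0394, adjusted p = 1.53e-07), below the fold threshold, and rimonabant one of 0.26 (SE 0.0393, adjusted p = 0.000447).

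TAX1BP1 (ENSG00000106052, chr7:27739331-27844564, plus strand), a receptor that works beside p62 and NBR1 on ubiquitin condensates, read 13.4, 14.0 and 12.6 FPKM with vehicle, 16.9, 16.8 and 15.7 FPKM with rimonabant and 20.4, 19.8 and 21.2 FPKM with TXX-1-10. Here too the groups did not overlap. Its log2 fold change came to 0.62 with TXX-1-10 (SE 0.0549, adjusted p = 3.1e-06) and 0.30 with rimonabant (SE 0.055, adjusted p = 0.00141).

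**Figure D1:**
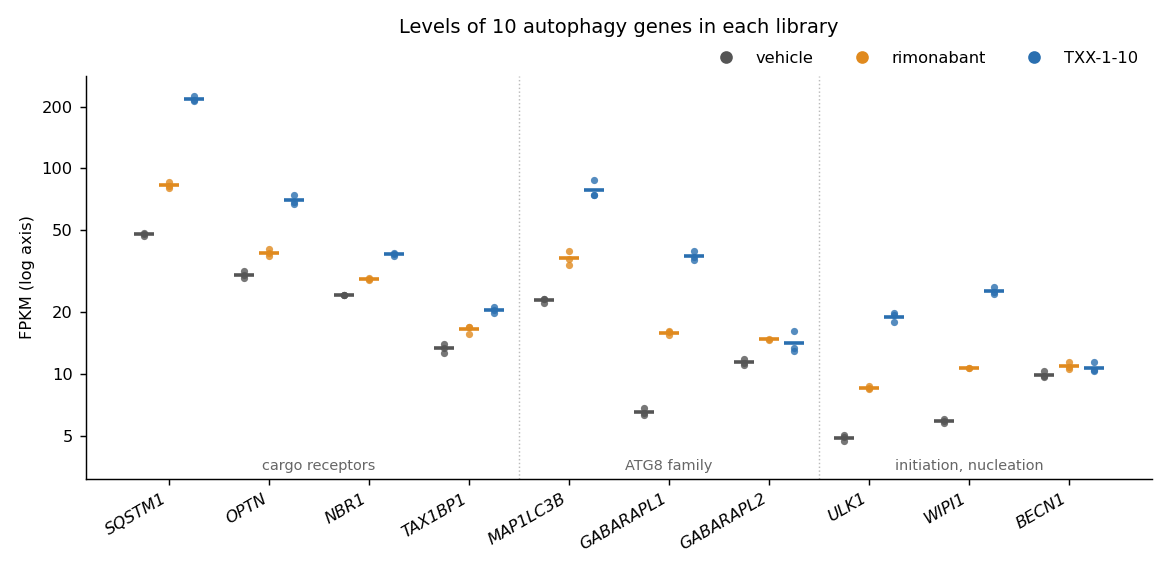
FPKM of the 10 genes in each library on a log axis, grouped by role. Each point is 1 library (3 per treatment, 2 for rimonabant in GABARAPL2 and WIPI1) and each bar the group mean. The means of SQSTM1 climb from 47.9 to 83.0 and 218 FPKM, and those of BECN1 stay between 9.91 and 10.9 FPKM.

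Of the ATG8 family, GABARAPL1 (ENSG00000139112, chr12:10212458-10223130, plus strand) had the largest change among the 10 genes with either compound. Its libraries held 6.46, 6.32 and 6.85 FPKM with vehicle, 16.0, 15.5 and 16.2 FPKM with rimonabant and 36.0, 37.1 and 39.6 FPKM with TXX-1-10. The 3 groups were well separated. TXX-1-10 raised it 5.74-fold, a log2 fold change of 2.52 (SE 0.0576, adjusted p = 3.39e-10), and rimonabant 2.43-fold, a log2 fold change of 1.28 (SE 0.0577, adjusted p = 2.95e-07). It ranked 51 of 11203 genes with TXX-1-10 and 47 with rimonabant.

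MAP1LC3B (ENSG00000140941, chr16:87383995-87404779, plus strand) encodes LC3B, the usual marker of autophagosomes. Levels were 23.2, 22.2 and 23.2 FPKM with vehicle, 39.7, 33.9 and 36.1 FPKM with rimonabant and 74.0, 74.6 and 87.7 FPKM with TXX-1-10. The groups did not overlap, and the highest value of each treated group came from rimonabant replicate 1 and TXX-1-10 replicate 3, the libraries with the gene length trend. The log2 fold change was 1.78 with TXX-1-10 (SE 0.0801, adjusted p = 1.94e-08) and 0.68 with rimonabant (SE 0.079, adjusted p = 9.9e-05), and leaving out 1 library at a time gave 1.70 to 1.83 for TXX-1-10. A near-identical copy, MAP1LC3B2, held 57 to 312 reads in 7 lists, beside at least 2036 for MAP1LC3B, and reads of the pair may be split between them.

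GABARAPL2 (ENSG00000034713, chr16:75566351-75577881, plus strand), also called GATE-16, differed from the other ATG8 genes. It read 11.8, 11.3 and 11.1 FPKM with vehicle, 14.7 and 14.8 FPKM in rimonabant replicates 2 and 3, and 13.4, 12.99 and 16.1 FPKM with TXX-1-10. Treated libraries were above vehicle, but the rimonabant values lay inside the range of the TXX-1-10 values. Both differences were small, with a log2 fold change of 0.31 with TXX-1-10 (SE 0.0815, adjusted p = 0.00412) and 0.37 with rimonabant (SE 0.0901, adjusted p = 0.00541).

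Among the genes of initiation and nucleation, ULK1 (ENSG00000177169, chr12:131894651-131923167, plus strand) encodes the kinase that starts autophagosome formation and is held back by mTORC1. It had 4.91, 4.71 and 5.07 FPKM with vehicle, 8.51, 8.44 and 8.73 FPKM with rimonabant and 19.8, 19.3 and 18.0 FPKM with TXX-1-10. No library of one group reached another group. On the log2 scale ULK1 was 1.96 higher with TXX-1-10 (3.88-fold, SE 0.0547, adjusted p = 9.05e-10) and 0.81 higher with rimonabant (1.75-fold, SE 0.055, adjusted p = 4.65e-06).

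WIPI1 (ENSG00000070540, chr17:68420948-68457513, minus strand), which binds phosphatidylinositol 3-phosphate on the forming membrane, had 5.80, 5.90 and 6.04 FPKM with vehicle, 10.6 and 10.7 FPKM in rimonabant replicates 2 and 3, and 25.02, 24.4 and 26.4 FPKM with TXX-1-10. The groups were again separate, with little spread within each. WIPI1 had a log2 fold change of 2.10 with TXX-1-10 (4.27-fold, SE 0.0598, adjusted p = 3.03e-11) and 0.85 with rimonabant (1.80-fold, SE 0.0684, adjusted p = 2.81e-06). ARSG on the opposite strand shares 24.3% of the exonic bases of WIPI1 and held 69 to 119 reads in 7 lists, against 337 reads or more for WIPI1.

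BECN1 (ENSG00000126581, chr17:42810134-42833350, minus strand) encodes Beclin 1, a subunit of the class III PI3K complex. Its libraries gave 9.70, 10.3 and 9.74 FPKM with vehicle, 11.5, 10.8 and 10.6 FPKM with rimonabant and 10.4, 10.3 and 11.5 FPKM with TXX-1-10. The TXX-1-10 and vehicle libraries overlapped, while the rimonabant libraries lay just above vehicle. The log2 fold change was 0.11 with TXX-1-10 (95% interval -0.0191 to 0.245, adjusted p = 0.108) and 0.14 with rimonabant (0.0106 to 0.275, adjusted p = 0.0703). This call depended on the scaling, since with TMM normalization it was 0.21 with TXX-1-10 (adjusted p = 0.0043) and 0.15 with rimonabant (adjusted p = 0.0326), and all 10 genes then passed the adjusted p. Leaving out TXX-1-10 replicate 3 also brought the rimonabant value past the threshold (0.143, adjusted p = 0.0379). On the opposite strand, exons of CNTD1 and PSME3 cover 12.4% and 4.68% of the exonic bases of BECN1. CNTD1 held 17 to 30 reads in 5 lists and PSME3 2783 to 4672 reads in 9, beside 1062 to 1352 for BECN1. What these overlaps add to the BECN1 count was not tested.

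The order of the 10 transcripts by FPKM, a per-length scale, differed between treatments. With vehicle it ran SQSTM1, OPTN, NBR1, MAP1LC3B, TAX1BP1, GABARAPL2, BECN1, GABARAPL1, WIPI1 and ULK1, and no neighbours in that order overlapped between libraries. With TXX-1-10 it ran SQSTM1, MAP1LC3B, OPTN, NBR1, GABARAPL1, WIPI1, TAX1BP1, ULK1, GABARAPL2 and BECN1, by group mean. There the ranges of MAP1LC3B and OPTN just met at 74.0 FPKM, but MAP1LC3B was the higher within each library. In replicates 1 to 3 it read 74.0, 74.6 and 87.7 FPKM, beside 68.8, 67.2 and 74.0 FPKM for OPTN. The libraries of GABARAPL1 (36.0 to 39.6 FPKM) enclosed those of NBR1 (37.4 to 38.7 FPKM). NBR1 was the higher in replicates 1 and 2 and GABARAPL1 in replicate 3, so NBR1 and GABARAPL1 could not be ordered. BECN1 stood above GABARAPL1, WIPI1 and ULK1 with vehicle and was the lowest of the 10 with TXX-1-10. With rimonabant, the range of OPTN overlapped that of MAP1LC3B, though OPTN was the higher within each library. TAX1BP1 overlapped GABARAPL1 and BECN1 overlapped WIPI1, and neither pair kept the same order in every library that lists both.

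Compared directly, TXX-1-10 libraries held more of 8 of the 10 transcripts than rimonabant libraries at an adjusted p under 0.05, against 26.2% of all genes higher at any fold. The genes SQSTM1, WIPI1, GABARAPL1, ULK1 and MAP1LC3B were called higher, 5 of 10 against 2.59% of all genes, and none was lower (4.41% of all genes were called lower and 31.9% were lower at any fold). SQSTM1 had the largest difference, 2.62-fold, with a log2 fold change of 1.39 (SE 0.0496, adjusted p = 1.12e-08). Then came WIPI1 at 1.24 (adjusted p = 1.23e-08), GABARAPL1 at 1.24 (adjusted p = 3.69e-08), ULK1 at 1.15 (adjusted p = 4.83e-08) and MAP1LC3B at 1.11 (adjusted p = 1.01e-06). OPTN at 0.85, NBR1 at 0.39 and TAX1BP1 at 0.31 were higher below the fold threshold (adjusted p = 5.44e-07, 1.22e-05 and 0.000583).

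For GABARAPL2 and BECN1 no difference between the compounds was detected. The log2 fold change was -0.06 for GABARAPL2 (95% interval -0.254 to 0.133, adjusted p = 0.576) and -0.03 for BECN1 (-0.161 to 0.101, adjusted p = 0.676). GABARAPL2 was 0.16 lower with TXX-1-10 on the log2 scale when TXX-1-10 replicate 3 was left out (log2 fold change -0.163, adjusted p = 0.034). As doses are not given in the sources used here, these are differences between the treatments as they were applied.

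**Figure D2:**
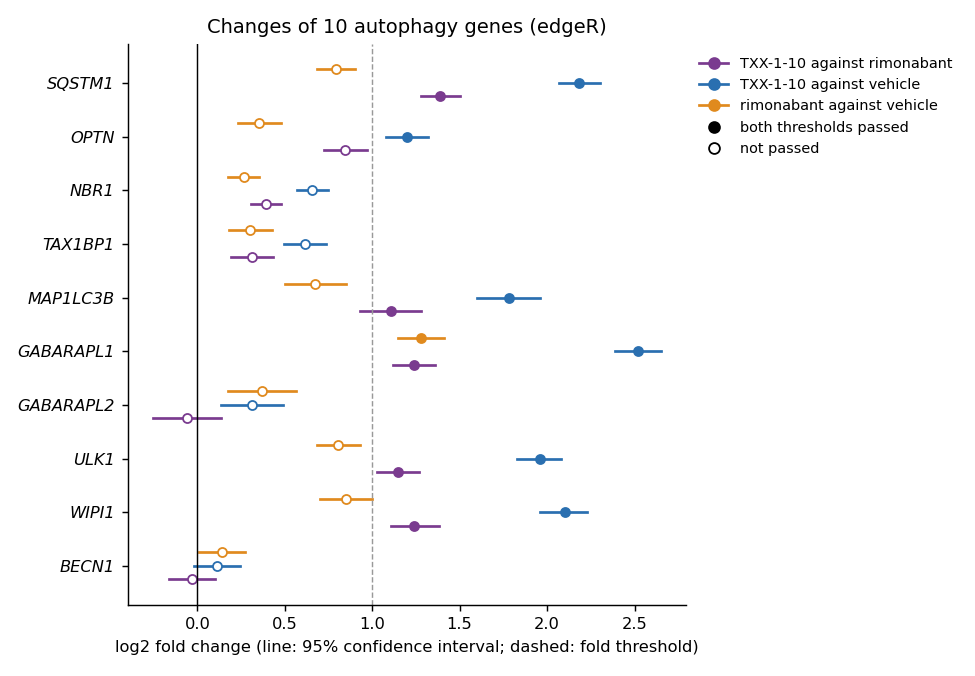
Log2 fold change of each gene in the 3 comparisons, as fitted by edgeR, with 95% intervals as lines. Filled points have a log2 fold change of at least 1 (dashed line) and an adjusted p under 0.05, and open points do not. GABARAPL1 at 1.28 is the single filled point for rimonabant against vehicle, and the intervals of GABARAPL2 and BECN1 include 0 for TXX-1-10 against rimonabant.

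SQSTM1 made up a larger share of the receptor transcripts in every treated library than in any vehicle library. Of the summed FPKM of the 4 receptors, which was 115 to 117 with vehicle, 164 to 172 with rimonabant and 338 to 357 with TXX-1-10, SQSTM1 made up 40.4%, 41.2% and 42.5% in the vehicle libraries. With rimonabant it made up 49.9%, 49.1% and 49.7%, and with TXX-1-10 62.8%, 62.9% and 62.9%. The difference between TXX-1-10 and vehicle was 21.5 percentage points. The groups did not overlap. Each of the 3 comparisons gave p = 0.1 in a two-sided exact permutation test, the smallest that 3 libraries against 3 can give. The shares come from the same FPKM values as the levels of the single genes above, so they are not a separate result.

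Within the 3 ATG8 genes, the share of GABARAPL1 was higher and that of GABARAPL2 lower in each treated library than in any vehicle library. GABARAPL1 made up 16.0% ± 0.566 (SD, n = 3) of their summed FPKM with vehicle, 24.1% in both rimonabant libraries that list all 3 genes and 28.8% ± 1.12 (n = 3) with TXX-1-10. GABARAPL2 stood at 28.0% ± 0.893 with vehicle, 22.5% ± 0.586 (n = 2) with rimonabant and 10.8% ± 0.408 with TXX-1-10. MAP1LC3B held the largest part throughout, at 56.0% ± 0.359, 53.4% ± 0.618 and 60.3% ± 0.742. For TXX-1-10 against vehicle the exact permutation p was 0.1 for each gene, and with 2 rimonabant libraries it could not fall below 0.2. These shares too restate the FPKM values of the single genes.

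A wider list of 72 other autophagy genes was examined by role. Of these, 66 could be tested, while ULK2, MAP1LC3A, MAP1LC3C and RETREG1 were listed for too few libraries and ATG10 and TFEB had a mean under 1 FPKM. With TXX-1-10, 12 were called higher than with vehicle, where 6.34% of all genes were, and none was called lower. At an adjusted p under 0.05, 41 were higher and 5 lower, against 34.1% and 37.6% of all genes, and the median log2 fold change was 0.358. With rimonabant, 1 of the 66 was called higher, a share near the 1.07% of all genes, and 32 were higher and 2 lower at any fold, against 22.7% and 20.4%, with a median of 0.22. The medians lay below those of the 10 genes in both comparisons. Both lists were chosen with earlier results of these data known, so this order is only a description. Within a single role the counts are small, and they are given as a description beside the same shares of all genes.

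All 3 tested partners of ULK1 in its complex were higher with TXX-1-10, where 34.1% of all genes were. RB1CC1, the scaffold FIP200, was called at a log2 fold change of 1.05 (adjusted p = 4.89e-08), which was 0.99 and not called without vehicle replicate 3, and ATG101 at 0.70 and ATG13 at 0.48 stayed under the fold threshold. In the class III PI3K complex, 5 of 7 genes were higher and 1 was called, beside 34.1% and 6.34% of all genes. The call was ATG14, the subunit that directs Beclin 1 to autophagy, at 1.15 (adjusted p = 3.74e-09). NRBF2 and RUBCN, 2 other partners, were higher at 0.92 (adjusted p = 4.27e-07) and 0.75 (adjusted p = 2.3e-07), while the catalytic subunit PIK3C3 at 0.10 (adjusted p = 0.232) and PIK3R4 at 0.01 (adjusted p = 0.925) did not pass. BECN1, at 0.11, was likewise among the subunits that did not pass.

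Of 9 genes for phagophore expansion, 7 were higher and 3 were called, beside 34.1% and 6.34% of all genes. ZFYVE1, which marks the omegasome, was at 1.40 (adjusted p = 2.65e-08), WDR45, the WIPI family member WIPI4, at 1.33 (adjusted p = 1.85e-08), and the lipid transfer protein gene ATG2A at 1.01 (adjusted p = 2.4e-06). ATG2A stood at 0.95 to 0.999, and was not called, without vehicle replicate 1 or 2 or TXX-1-10 replicate 1 or 2. Of 9 tested genes of the machinery that couples ATG8 proteins to lipid, none was called, 4 were higher and 1 was lower (34.1% and 37.6% of all genes were), with a median of 0.01 (log2). ATG12 was highest at 0.74 (adjusted p = 1.92e-06), ATG4C, a protease that trims ATG8 proteins, was lower at -0.46 (adjusted p = 0.000252), and ATG3, the enzyme that carries ATG8 proteins to lipid, stood at 0.01 (adjusted p = 0.959). ATG3, like PIK3C3 and PIK3R4 above and MLST8 below, is named outside the rule for named genes and was chosen after its value was seen.

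The remaining ATG8 genes were weakly listed. MAP1LC3B2 was called at 1.95 with TXX-1-10 (adjusted p = 1.96e-06), with the uncertainty of its near copy, and GABARAP, at 41 to 94 reads, stood at 0.39 (adjusted p = 0.0769). Of 13 other cargo receptors 8 were higher and 1 was lower, beside 34.1% and 37.6% of all genes. CALCOCO1 at 1.66 (adjusted p = 6.4e-09), TOLLIP at 1.12 (adjusted p = 3.51e-08) and CCPG1, a receptor for the endoplasmic reticulum, at 1.05 (adjusted p = 2.16e-06) were called. Without TXX-1-10 replicate 3, CCPG1 stood at 0.99 (adjusted p = 3.07e-10) and was not called. BNIP3, a mitophagy receptor known as a hypoxia target, was lower at -0.66 (adjusted p = 1.81e-05). BNIP3L, of the same role, went the other way, at 0.44 with TXX-1-10 (adjusted p = 2.92e-05) and 0.62 with rimonabant (adjusted p = 1.53e-05). Of 8 genes for fusion with the lysosome 4 were higher and 1 was called, beside 34.1% and 6.34% of all genes. The call was the adaptor PLEKHM1 at 1.92 (adjusted p = 3.49e-08), from 6.09, 6.84 and 7.04 FPKM with vehicle to 26.7, 27.1 and 22.0 FPKM with TXX-1-10.

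Regulators were divided, with 9 of 15 higher and 3 lower with TXX-1-10, beside 34.1% and 37.6% of all genes. SESN2, a stress-induced inhibitor of mTORC1, was the most changed gene of the wider list. It stood at 2.75, 2.96 and 2.89 FPKM with vehicle, 10.8 and 11.0 FPKM in rimonabant replicates 2 and 3, and 23.0, 23.3 and 22.7 FPKM with TXX-1-10. The groups were far apart, and the log2 fold change was 3.01 with TXX-1-10 (adjusted p = 6.45e-12) and 1.93 with rimonabant (adjusted p = 9.07e-09), the single call of the wider list for rimonabant. TRAF6, a ubiquitin ligase that acts with p62, was called at 1.07 with TXX-1-10 (adjusted p = 4.21e-07). The genes lower with TXX-1-10 were PRKAA1, which encodes the AMPK subunit alpha 1, at -0.73 (adjusted p = 1.77e-06), and RPTOR and MLST8, both of mTORC1, at -0.71 (adjusted p = 0.000158) and -0.22 (adjusted p = 0.0231).

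Genes of the p62 and NRF2 axis and other transcription factors are given outside the rule for named genes, chosen after their values were seen. NFE2L2, the gene of NRF2, was 0.70 higher with TXX-1-10 (adjusted p = 6.31e-06) and 0.36 higher with rimonabant (adjusted p = 0.00196) on the log2 scale. KEAP1 stood at 0.08 with TXX-1-10 (adjusted p = 0.413). ATF4 was 0.62 higher with TXX-1-10 (adjusted p = 7.67e-05) and 0.58 higher with rimonabant (adjusted p = 0.000376), while TFE3 and FOXO3 were 0.32 and 0.44 higher with TXX-1-10 (adjusted p = 7.01e-05 and 0.000399). All 4 factors were below the fold threshold.

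Between the compounds, 4 of the 66 genes were called higher with TXX-1-10, where 2.59% of all genes were. At an adjusted p under 0.05, 29 were higher and 9 lower, against 26.2% and 31.9% of all genes, with a median of 0.111. The calls were MAP1LC3B2 at 1.26, PLEKHM1 at 1.18, CALCOCO1 at 1.13 and SESN2 at 1.08 (adjusted p = 5.86e-05, 1.96e-06, 1.71e-07 and 2.83e-08). BNIP3 at -0.65 (adjusted p = 3.52e-05) and ATG4C at -0.63 (adjusted p = 7.46e-05) were the lowest.

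**Figure D3:**
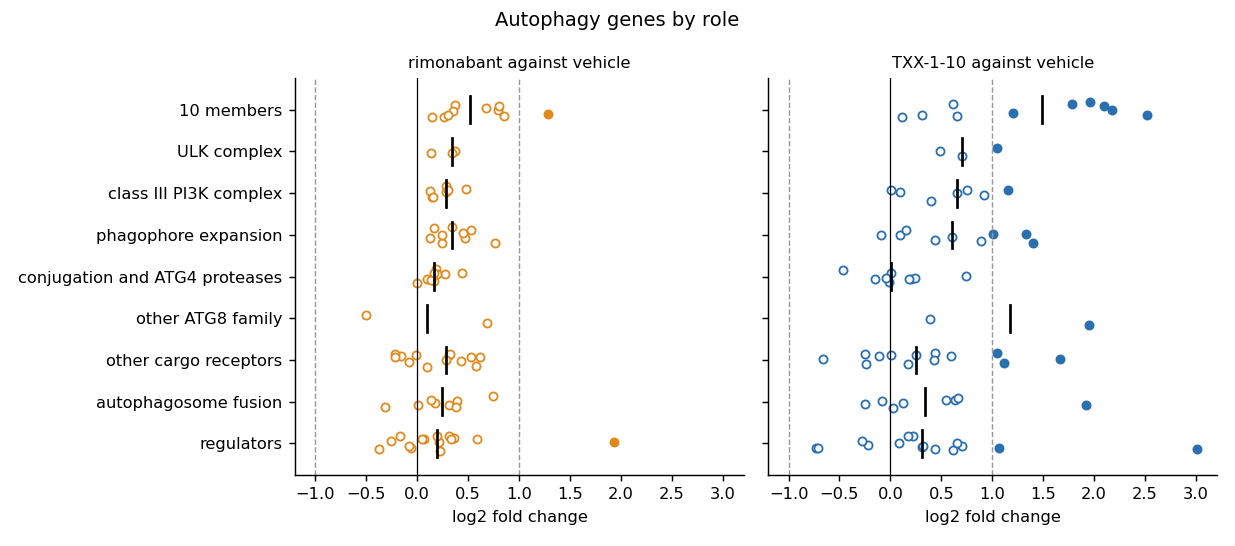
Log2 fold change against vehicle of the 10 genes and of the other autophagy genes by role, for rimonabant (left) and TXX-1-10 (right), 1 point per gene. Filled points were called, black bars are medians and dashed lines the fold threshold. The median of the 10 genes is 0.523 with rimonabant and 1.49 with TXX-1-10, and that of the conjugation genes with TXX-1-10 is 0.00701.

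The genes whose pattern over the 9 libraries was nearest to that of SQSTM1 were SLC2A3, FAM102A, KLF4, BTG1 and BHLHE40, with Euclidean distances of 0.34, 0.421, 0.441, 0.445 and 0.448 among 4235 genes, on log2(FPKM + 1) minus the vehicle mean. SLC2A3, which encodes the glucose transporter GLUT3, stood at 5.59 ± 0.322, 10.5 ± 0.416 and 25.1 ± 0.244 FPKM (SD, n = 3) with vehicle, rimonabant and TXX-1-10. KLF4, a zinc finger transcription factor, went from 10.8 ± 1.07 to 17.3 ± 0.535 and 58.7 ± 1.42 FPKM, and BHLHE40, a transcriptional repressor, from 10.2 ± 0.369 to 21.6 ± 0.551 and 45.4 ± 0.582 FPKM. None of the 5 belongs to the 82 autophagy genes examined.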

How the data were processed

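RNA-seq was carried out on 9 libraries of MDA-MB-231 cells, 3 per treatment. Libraries were made from oligo(dT)-selected mRNA. HISAT2 2.0.5 and featureCounts 1.5.0-p3 are named in the submitters' processing notes. For each gene and library the authors deposited a whole-number read count without normalization, and an FPKM value made from that count, the gene length and a library total. Coordinates match GENCODE release 29 (GRCh38). All 9 lists end partway, so genes with few reads are missing from some.

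Counts were fitted with edgeR 4.0.16 in R 4.3.3 (glmQLFit and glmQLFTest), with the total behind the FPKM values as library size and all 3 treatments in the fit. Each gene was taken from the table with the most libraries (4237 genes listed for 9, 9397 for 8 without rimonabant replicate 1, 11740 for 7, also without vehicle replicate 2), with a mean of at least 1 FPKM. P-values were adjusted by Benjamini-Hochberg within each table. A gene was called at an adjusted p under 0.05 and a log2 fold change of 1 or more in size. The SE was approximated from the F statistic. The fits were tested on simulated data. The lowest count of the 10 genes was 337, for WIPI1. The SE did not simply follow the count. For TXX-1-10 against vehicle it was 0.0598 for WIPI1 and 0.0801 for MAP1LC3B, which held 2036 reads or more.

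The 10 genes and the wider list of 72 were chosen with earlier results of these data known. Named genes were the 10, genes of the wider list called in any comparison, up to 2 more per role with the largest change against vehicle, and the 5 nearest to SQSTM1. Genes named outside this rule are said to be so. Promoters are from RefSeq. Shares were compared by exact permutation (scipy 1.17.1). Alternatives were TMM, DESeq2 1.42.0, limma 3.58.1 on log2(FPKM + 1) and log2(FPKM + 0.1), other filters, a gene length correction (lowess, span 0.3), the replicate number as a block, both together, fits of 2 groups, the table of 7 libraries and leaving libraries out. Plots were made with matplotlib 3.10.9.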

Additional observations from a re-analysis of the deposited data

How the results depend on the processing

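The genes called among the 10 were identical under all 21 alternatives in each comparison (6 for TXX-1-10 against vehicle, 1 for rimonabant against vehicle and 5 for TXX-1-10 against rimonabant). Of 624 single log2 fold changes recomputed for the 10 genes, 607 kept direction and side of the adjusted p threshold, 11 passed it newly and 6 changed sign. The 6 were all BECN1 in TXX-1-10 against rimonabant, at 0.0567 with TMM, 0.0573 with DESeq2, 0.0412 with the length correction, 0.0408 with the length correction and the replicate block, 0.00445 without rimonabant replicate 1 and 0.00448 in the table of 7 libraries (leaving out 1 library at a time gave -0.0795 to 0.00445), with adjusted p between 0.361 and 0.961. The 11 were BECN1 against vehicle and GABARAPL2 in TXX-1-10 against rimonabant. Over all tested genes, limma on log2(FPKM + 1) called 1029 in place of 1570 genes for TXX-1-10 against vehicle, 99 in place of 235 for rimonabant against vehicle and 490 in place of 784 between the compounds, and a mean of at least 5 FPKM, which tests fewer genes, left 945, 116 and 480. With limma on log2(FPKM + 0.1), 1489 genes were called for TXX-1-10 against vehicle. The cause of the fewer calls with limma on log2(FPKM + 1) was not tested. In the wider list 8 to 13, 1, and 4 to 5 genes were called. For TXX-1-10 against vehicle the calls lost were among ATG2A, CCPG1, RB1CC1 and TRAF6 and the gain was NRBF2 with the length correction, and between the compounds GABARAP was gained without rimonabant replicate 2.

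Equal replicate numbers gave no steady sign of pairing. Deviations of equally numbered libraries correlated at -0.0925 to 0.0442 with vehicle and at -0.789, 0.8 and -0.59 between the compounds. Rimonabant replicate 1 and TXX-1-10 replicate 3, with their gene length trend, enter the group means behind the latter values. Pairing between the compounds therefore cannot be judged from them. With the replicate number as a block, 6, 1 and 5 of the 10 genes were called, and 1574, 248 and 799 of all genes. With the length correction and the block these were 6, 1 and 5, and 1550, 252 and 769. Depth limits genes with few reads, such as GABARAP, and the intervals cover the spread between these libraries only.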
